A study of Mus musculus with 92 samples.

Results

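The replication-dependent histone genes code for the core histones H2A, H2B, H3 and H4 that package newly made DNA. They were taken as all protein-coding genes of the GRCm38 annotation whose symbol starts with H2ac, H2bc, H3c or H4c and a number, or with the older prefixes Hist1h to Hist4h. This gave 57 of the 21887 protein-coding genes on chromosomes 1 to 19, X and Y, namely 17 H2A, 16 H2B, 12 H3 and 12 H4 genes. They lie in 3 clusters: cluster 1 with 10 genes (chr3:96219885-96270192), cluster 2 with 21 genes (chr13:21715711-22043658) and cluster 3 with 26 genes (chr13:23531044-23934913). The linker histone genes H1f1 to H1f6 lie among them on chromosome 13 but have symbols that the rule does not take.

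Chromatin immunoprecipitation followed by sequencing was used to map subunits of cohesin, the ring complex that folds chromosomes into loops, in mouse cells along a path to the male germline. The values are 30 deposited peak lists, of 92 samples in the series. Wild-type STAG1 (10 lists) and STAG2 (13 lists) were mapped in 5 cell types. These are embryonic stem cells (ESC), EpiLC, which resemble the epiblast, the 2 stages d2PGCLC and d4c7PGCLC of cells that resemble primordial germ cells, and germline stem cells (GSC). Each cell type had 2 STAG1 lists, and it had 2 STAG2 lists in ESC and EpiLC and 3 in the other cell types. STAG3 had 3 lists, all from wild-type GSC. CTCF, the DNA-binding protein at which cohesin often stops, had 4 lists from GSC of the genotypes Stag1Stag2dKO, Stag1Stag3dKO, Stag2Stag3dKO and Stag3KO, each called on pooled replicates. ESC, EpiLC and both PGCLC stages came from the BVSC line, which carries Blimp1-mVenus and Stella-ECFP reporters. GSC came from the AAG line, which carries Acrosin-EGFP and beta-Actin-EGFP, so cell type and line cannot be told apart for GSC. Peak lists hold no expression values, so the cell types could not be checked against marker genes.

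Replication-dependent histone genes are short, have few introns or none, and are transcribed mainly in S phase. Their mRNAs end in a stem-loop instead of a poly(A) tail, and their clusters gather in nuclear histone locus bodies around the coactivator NPAT. H2bc1 and H2ac1 are the testis variants that enter chromatin of spermatogenic cells. Genes for transfer RNAs, which RNA polymerase III transcribes, are interspersed with the histone genes on mouse chromosome 13.

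The DNA just upstream of histone gene starts is shown for members on which the results turn. RefSeq promoter sequences on GRCm38.p6 were matched for 52 of the 57 genes. First come the interval between the starts of the divergent pair H2bc13 and H2ac13 (chr13:21716184-21716411, plus strand), which overlapped peaks of 3 STAG2 and 3 STAG3 lists, and 150 bases upstream of H4c11 (chr13:21734884-21735033, plus strand), H4c8 (chr13:23530894-23531043, plus strand) and the testis gene H2ac1 (chr13:23934287-23934436, plus strand). The H4c11 bases overlapped peaks of 4 STAG2 lists, 1 STAG3 list and 0 CTCF lists. The H4c8 bases overlapped peaks of 4 STAG2 lists and 0 STAG3 lists, and the H2ac1 bases overlapped no peak. Capitals mark, on either strand, the CCAAT box, the TATA box in the form TATAAA, and the octamer that is spelled out with the motif counts.
H2bc13/H2ac13: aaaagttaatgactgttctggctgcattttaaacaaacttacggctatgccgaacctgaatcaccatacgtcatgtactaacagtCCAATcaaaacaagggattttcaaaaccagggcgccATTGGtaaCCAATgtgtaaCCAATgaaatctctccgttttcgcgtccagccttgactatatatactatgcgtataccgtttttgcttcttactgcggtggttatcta
H4c11: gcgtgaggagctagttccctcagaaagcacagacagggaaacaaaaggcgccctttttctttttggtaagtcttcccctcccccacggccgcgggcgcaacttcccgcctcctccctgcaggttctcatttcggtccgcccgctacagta
H4c8: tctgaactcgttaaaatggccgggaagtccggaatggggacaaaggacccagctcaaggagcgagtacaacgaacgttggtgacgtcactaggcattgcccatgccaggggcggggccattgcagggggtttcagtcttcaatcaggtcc
H2ac1: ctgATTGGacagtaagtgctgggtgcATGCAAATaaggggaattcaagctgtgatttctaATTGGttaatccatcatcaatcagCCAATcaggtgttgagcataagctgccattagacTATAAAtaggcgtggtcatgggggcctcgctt

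The next sequences are 250 bases upstream of a pair of H2A genes of cluster 1, H2ac19 (chr3:96240375-96240624, minus strand) and H2ac18 (chr3:96245247-96245496, plus strand), and of a pair of H4 genes of cluster 2, H4c17 (chr13:21811496-21811745, plus strand) and H4c18 (chr13:21832198-21832447, minus strand). They are shown because they lie in stretches where no STAG1 or STAG2 list had a peak. The H2ac19 and H2ac18 bases each overlapped peaks of 2 STAG3 lists, the H4c18 bases those of 3, and the H4c17 bases overlapped no peak. Capitals mark the run of bases that is identical within each pair, 169 bases for the H2A pair and 249 for the H4 pair.
H2ac19: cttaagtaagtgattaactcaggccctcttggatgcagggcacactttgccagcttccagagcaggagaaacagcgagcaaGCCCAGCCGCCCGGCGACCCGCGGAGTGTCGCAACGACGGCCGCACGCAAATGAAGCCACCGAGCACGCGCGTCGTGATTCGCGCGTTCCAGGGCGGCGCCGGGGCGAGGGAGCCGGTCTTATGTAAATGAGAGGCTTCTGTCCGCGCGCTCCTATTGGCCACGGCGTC
H2ac18: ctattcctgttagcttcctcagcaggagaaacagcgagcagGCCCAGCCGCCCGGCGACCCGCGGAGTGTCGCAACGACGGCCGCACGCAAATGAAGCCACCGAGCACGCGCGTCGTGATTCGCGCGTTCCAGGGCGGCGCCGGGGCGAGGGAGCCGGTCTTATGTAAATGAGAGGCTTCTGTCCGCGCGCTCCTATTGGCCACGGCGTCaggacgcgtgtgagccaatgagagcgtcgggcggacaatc
H4c17: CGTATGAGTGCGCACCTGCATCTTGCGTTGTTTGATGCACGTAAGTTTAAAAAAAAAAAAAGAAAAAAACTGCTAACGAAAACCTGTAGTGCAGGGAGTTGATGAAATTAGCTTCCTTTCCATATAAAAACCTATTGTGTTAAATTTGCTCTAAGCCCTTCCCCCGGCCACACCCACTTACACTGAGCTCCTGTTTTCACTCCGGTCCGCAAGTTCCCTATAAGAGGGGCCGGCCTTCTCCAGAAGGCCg
H4c18: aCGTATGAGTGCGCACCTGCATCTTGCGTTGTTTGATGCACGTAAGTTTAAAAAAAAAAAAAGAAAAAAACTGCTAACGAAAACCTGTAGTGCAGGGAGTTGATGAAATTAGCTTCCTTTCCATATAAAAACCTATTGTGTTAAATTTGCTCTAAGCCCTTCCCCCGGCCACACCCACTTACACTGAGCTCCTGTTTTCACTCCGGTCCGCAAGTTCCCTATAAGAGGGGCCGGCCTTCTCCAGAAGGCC

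These promoters differed by histone class in the motifs they hold. CCAAT, the site of the factor NF-Y, occurred on either strand within 250 bases upstream in 42 of 52 histone genes (80.8%), against 39.5% of all 17492 genes with a RefSeq promoter. It was found in 17 of 17 H2A, 14 of 14 H2B, 8 of 10 H3 and 3 of 11 H4 genes. The octamer ATTTGCAT, known from H2B promoters as the site of OCT1, occurred in 7 of 14 H2B and 6 of 17 H2A genes and in no H3 or H4 gene. That made 13 of 52 (25.0%), against 1.80% of all genes. TATAAA occurred in 24 of 52 (46.2%), against 13.7%. Motifs were searched by letters alone and may share bases.

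Histone genes differed widely between the cohesin subunits in how many had a peak. A gene was counted when a peak overlapped a gene end, meaning the 2500 bp to each side of its start or its end. In the STAG1 lists, 0 to 8 of the 57 genes had such a peak (median 3), and in the STAG2 lists 12 to 38 (median 30). The 3 STAG3 lists covered 32, 56 and 57 genes. CTCF covered 22 genes in Stag1Stag2dKO, 13 in Stag1Stag3dKO, 12 in Stag2Stag3dKO and 17 in Stag3KO. The STAG1 and STAG2 ranges did not overlap, and only STAG3 reached every histone gene in a list.

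Lists differ in length, so each share is set beside the share of all genes in the same list. Genes also differ in length: the windows at the 2 ends of a short gene overlap, so less DNA was searched at a histone gene than at a long gene. That holds for every share of gene-end peaks or of calls below, and its part in the lower shares was not tested. STAG1 covered 0% to 14.0% of histone genes and 8.73% to 33.1% of all genes, and was lower at histone genes than at all genes in each of its 10 lists. STAG2 covered 21.1% to 66.7% of histone genes and 14.9% to 63.0% of all genes, and the ratio of these shares within a list was 0.807 to 1.49. STAG3 covered 56.1%, 98.2% and 100% of histone genes, against 27.2%, 61.0% and 61.9% of all genes. The STAG3 share at histone genes was thus 1.61 to 2.07 times that of all genes. The shortest STAG3 list, replicate 1 with 12832 peaks, and the shortest GSC STAG2 list, replicate 2 with 13698, were of similar length; they covered 32 and 12 histone genes, and 27.2% and 14.9% of all genes. Sequencing depth is unknown here, and the absence of a peak is not the absence of protein.

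**Figure D1:**
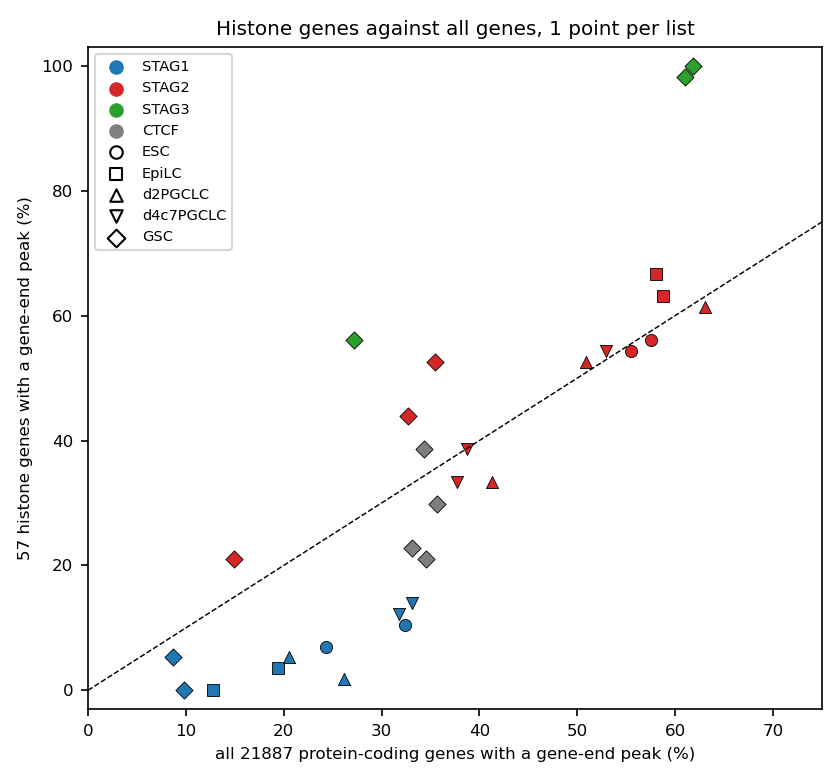
Each point is 1 peak list, with the percent of all 21887 genes that have a gene-end peak on the horizontal axis and the percent of the 57 histone genes on the vertical axis; the line marks equal shares. The STAG1 points lie below the line, the 3 STAG3 points above it, and STAG2 points lie near it, with the GSC lists above.

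Histone genes are small and close together, so a single peak can serve several of them. The counts came from 0 to 5 distinct peaks in a STAG1 list, 7 to 50 in a STAG2 list (median 27), 23, 64 and 70 in the STAG3 lists, and 8 to 14 in a CTCF list. Among the 52 genes with a RefSeq promoter, 8 divergent H2A and H2B pairs had at most 250 bases between their starts (163 to 248). Of these pairs, 5 had the same pattern of presence in all 30 lists. Wider pairs, such as H2bc1 and H2ac1, and genes without a known strand were not counted.

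**Figure D2:**
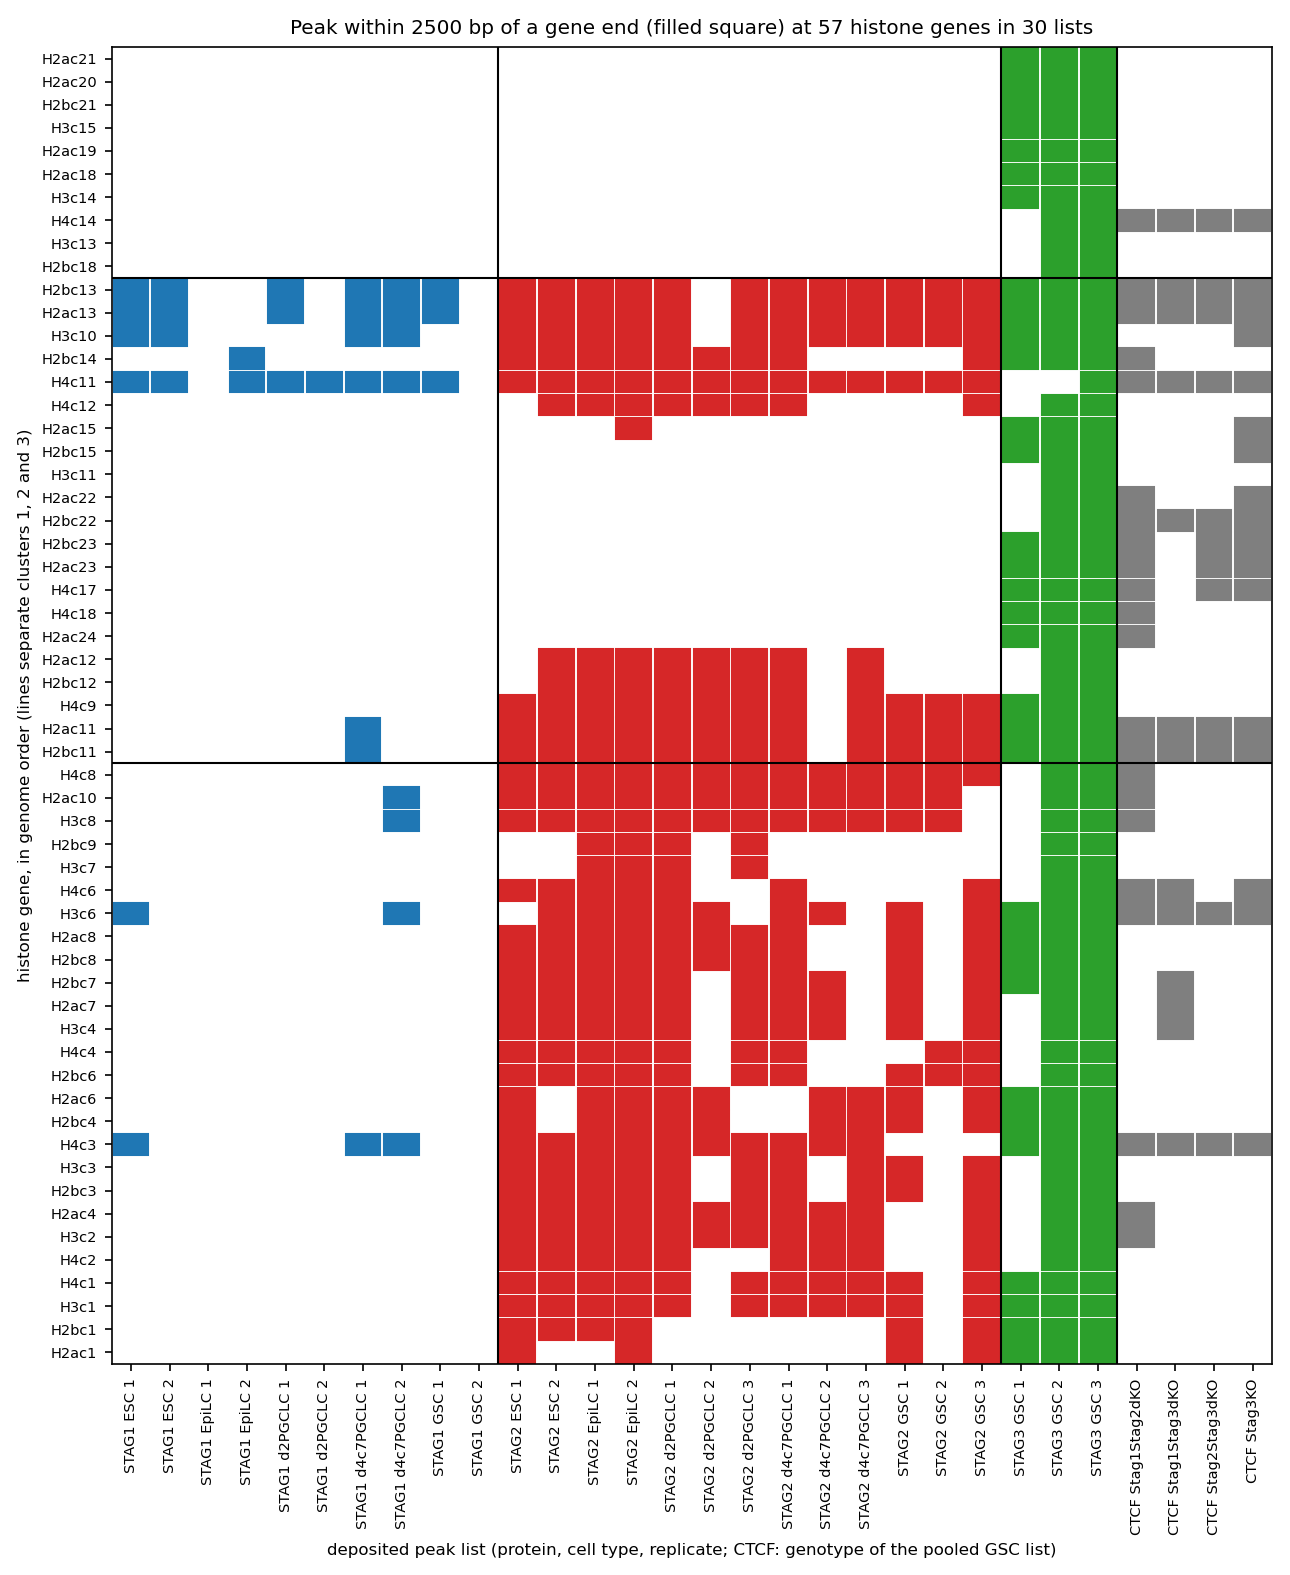
Each row is a histone gene in genome order and each column a peak list, grouped by protein and cell type; a filled cell is a gene-end peak. STAG3 replicates 2 and 3 fill 56 and 57 rows and replicate 1 fills 32, the STAG1 columns are mostly empty, and the cluster 1 rows are empty for STAG1 and STAG2.

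The first comparison asked at which histone genes STAG2 lists had a peak more often than STAG1 lists in the same cell types. STAG2 was more frequent at 26 of 57 histone genes (45.6%), against 15.2% of all genes, and less frequent at 0, against 0.00914% of all genes. The median over the histone genes of the difference between the STAG2 and STAG1 shares of lists was 0.533, and over all genes 0.200. The genes called were 7 of 17 H2A, 8 of 16 H2B, 5 of 12 H3 and 6 of 12 H4 genes. By cluster they were 0 of 10, 7 of 21 and 19 of 26, so that most lay in cluster 3. Each gene was tested with an exact two-sided permutation test of list labels within cell type, with Benjamini-Hochberg adjustment over 21887 genes, and at an unadjusted p of 0.05 or less 30 histone genes (52.6%) and 30.5% of all genes passed. The antibodies also differ, and the STAG1 lists were shorter (9641 to 42013 peaks) than the STAG2 lists (13698 to 84904). The count was 1 when every list was held to the length of the shortest (against 0.201% of all genes). It was 0 in the fit that pairs lists by replicate number, against 0% of all genes. That fit set 1 list against 1 in each pair, which leaves few possible p-values. Its 0 therefore cannot tell histone genes from other genes.

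The histone H4 genes H4c8 and H4c9 showed the most uniform difference. H4c8 had a peak in 13 of 13 STAG2 lists and 0 of 10 STAG1 lists (adjusted p = 0.0061, exact permutation test). The authors' fold enrichment of its highest STAG2 peak ran from 42.9 through a median of 217 to 402, and its median was the highest among the histone genes named here. That peak lies beside a tRNA gene, n-TMcat9 (chr13:23530348-23530419), less than a kilobase from the H4c8 start. Without peaks at tRNA genes, an alternative added after seeing the data, H4c8 kept a STAG2 peak in 7 of 13 lists. It was the one histone gene that lost lists in this way, and the count of 26 did not change.

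H4c9 lies at the far end of cluster 2. It had STAG2 in 12 of 13 lists and STAG1 in 0 of 10 (adjusted p = 0.0061, exact permutation test), with STAG2 folds of 3.94 to 10.6 and a median of 5.62. Its neighbours H2ac11 and H2bc11, a divergent H2A and H2B pair, had STAG2 in 12 lists and STAG1 in 1 (adjusted p = 0.0132 each, exact permutation test). These 3 genes share peaks. In cluster 3 the H4 gene H4c1 and the H3 gene H3c1 had STAG2 in 11 lists and STAG1 in none (adjusted p = 0.00893 each, exact permutation test). The same counts held for the H2A gene H2ac4 and the H3 gene H3c2 (adjusted p = 0.00854 each, exact permutation test). The fold of the H3c1 peaks was 3.77 to 8.69 for STAG2 and 5.43, 7.04 and 8.92 over the STAG3 lists in order of size, so both proteins had peaks of modest height there.

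The genes with the most cohesin lists lay at the start of cluster 2, beside CTCF sites. H4c11 had a peak in 8 of 10 STAG1 lists, 13 of 13 STAG2 lists, 1 of 3 STAG3 lists and 4 of 4 CTCF lists. Its folds were 4.38 to 20.05 for STAG1, 9.95 to 76.4 for STAG2, 6.84 for STAG3 and 32.7 to 35.9 for CTCF. The STAG1 and STAG2 shares at H4c11 did not differ by the test (adjusted p = 0.442, exact permutation test). The pair H2bc13 and H2ac13 had 6 STAG1, 12 STAG2, 3 STAG3 and 4 CTCF lists (adjusted p = 0.239 each, exact permutation test). Its neighbour H3c10, an H3 gene, had 4, 12, 3 and 1 (adjusted p = 0.0574, exact permutation test). The 1 CTCF peak at H3c10 belongs to the site also counted at H2ac13 (chr13:21714704-21715133), which was found in all 4 genotypes. That site lies at the edge of the H3c10 window, and only its Stag3KO peak reached in. At H2ac13 the CTCF folds were 19.1 in Stag1Stag2dKO, 17.8 in Stag1Stag3dKO, 16.1 in Stag2Stag3dKO and 17.2 in Stag3KO, a narrow range over the genotypes.

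The testis genes H2bc1 and H2ac1, at the end of cluster 3, had STAG3 in all 3 lists and STAG1 in none. H2bc1 had STAG2 in 6 of 13 lists and H2ac1 in 4. At H2ac1 the folds were 7.67, 6.86 and 7.82 in STAG3 replicates 1, 2 and 3, and 3.87 to 7.17 in the STAG2 lists. Neither gene differed between STAG2 and STAG1 by the test (adjusted p = 0.0595 for H2bc1 and 0.26 for H2ac1, exact permutation test).

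The second comparison asked whether histone genes lost or gained STAG1 and STAG2 peaks in GSC relative to the other 4 cell types. The STAG2 counts were 31 and 32 genes in ESC, 36 and 38 in EpiLC, 35, 19 and 30 in d2PGCLC, 31, 19 and 22 in d4c7PGCLC, and 25, 12 and 30 in GSC. The STAG1 counts were 6 and 4, 0 and 2, 3 and 1, 7 and 8, and 3 and 0 in the same order. GSC counts overlapped those of other cell types for both proteins. Of the 57 genes, 1 was lower in GSC (1.75%), against 6.44% of all genes, and 0 were higher, against 0.00457% of all genes. The median over the histone genes of the difference in share was -0.0167, and over all genes -0.10. The test was an exact two-sided permutation of lists within protein with Benjamini-Hochberg adjustment over 21887 genes. At an unadjusted p of 0.05 or less, 5 histone genes (8.77%) and 18.5% of all genes passed.

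The gene lower in GSC was H4c3, an H4 gene of cluster 3. It had STAG2 in all 10 lists outside GSC and in none of the 3 GSC lists. STAG1 was called there in 1 ESC and 2 d4c7PGCLC lists and in no GSC list. The mean difference in share was -0.688 (adjusted p = 0.0319, exact permutation test). In GSC, H4c3 had STAG3 in all 3 lists, with folds of 5.75, 6.41 and 6.65, and CTCF in all 4 genotypes, with folds of 22.9, 22.2, 19.3 and 18.1. The call was lost (0 genes) with a window of 1000 bp, and when ESC STAG1 replicate 1, either d4c7PGCLC STAG1 list, either GSC STAG1 list or any GSC STAG2 list was left out.

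In GSC the STAG2 lists were shorter, and in each of the 3 the share of histone genes with a peak was higher than that of all genes. The ratio of the 2 shares was 1.34, 1.41 and 1.49 in the GSC STAG2 lists. It was 0.807 to 1.15 in the 10 STAG2 lists of the other cell types, so these ranges did not overlap. No test was made of this ratio, since it is a score over the chosen genes.

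The third comparison set STAG3 beside STAG1 and STAG2 within wild-type GSC. STAG3 was in all 3 lists and STAG1 or STAG2 in none of 5 at 15 of 57 histone genes (26.3%), against 6.26% of all genes. The reverse held at 0 histone genes, against 0.0503% of all genes. At 13 histone genes (22.8%) STAG3 was in all 3 lists and neither STAG1 nor STAG2 in any of 23 lists of any cell type, against 0.918% of all genes. The 15 genes were 7 of cluster 1, 7 of cluster 2 and 1 of cluster 3, the last being H4c3. With 3 lists against 5, the smallest p an exact permutation test can give is 0.0179, which cannot pass an adjustment over all genes, so these are counts without a test. Without STAG3 replicate 1, the shortest list, the first count was 25 (43.9%), against 18.1% of all genes. The peak names point to a working directory for STAG3 that differs from that for STAG1 and STAG2, so antibody and calling run cannot be told apart.

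Of the 15 genes, 7 code for H2A, 3 for H2B, 2 for H3 and 3 for H4. The neighbours H2ac21, H2ac20 and H2bc21 of cluster 1 share STAG3 peaks with folds of 4.80, 7.09 and 6.45 in replicates 1, 2 and 3. At H3c15 and H2ac19 the folds were 5.43, 8.92 and 8.21, and at H2ac18 and H3c14 they were 6.07, 6.86 and 7.82. All of these replicates were in a narrow, moderate range. H4c14, the H4 gene of cluster 1, had STAG3 in replicates 2 and 3 alone, with folds of 3.89 and 3.91. In cluster 2, H2ac15 had STAG3 folds of 5.43, 8.24 and 7.60 and a STAG2 peak in 1 of 13 lists, outside GSC.

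Of the 15 genes, all but H4c3 lie in 2 long stretches that held no STAG1 or STAG2 peak in any of the 23 lists. The first, chr3:96196290-96307503 (111 kb), spans all of cluster 1 with its 10 histone genes. It held 8, 12 and 15 STAG3 peaks in replicates 1, 2 and 3, and 4 CTCF sites found in all 4 genotypes. The second, chr13:21750975-21847783 (96.8 kb), holds 10 genes of cluster 2 from H2ac15 to H2ac24. It held 4, 11 and 12 STAG3 peaks and 2 CTCF sites found in all 4 genotypes. So the DNA in these stretches gave peaks in STAG3 and CTCF lists while STAG1 and STAG2 lists were empty.

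Stretches like these are not limited to histone genes. Among 11891 stretches of at least 50 kb without STAG1 or STAG2 peaks, 44 held at least 5 peaks in both STAG3 replicates 2 and 3, and 2 of the 44 are the histone stretches. All stretches of that length held 20 of 57 histone genes (35.1%) and 3005 of all genes (13.7%).

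Some histone genes in these stretches have promoters that are near copies of each other, as the printed pairs show. The longest identical runs between promoters were 249 bases for H4c17 and H4c18, 231 for H3c15 and H3c14, 169 for H2ac19 and H2ac18, 150 for H2ac23 and H2ac24, and 72 for H4c11 and H4c12. A run of 50 bases shared with a promoter at another place was found in 9 of 18 histone promoters inside the 2 stretches (50.0%) and in 2 of 34 outside them (5.88%). For other genes it was found in 136 of 215 promoters in the remaining stretches with STAG3 peaks (63.3%) and in 1596 of 17225 elsewhere (9.27%). How reads that map to several places were treated for each antibody was not given in the sources used here, and the part of repeated sequence in the missing STAG1 and STAG2 peaks was not tested.

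**Figure D3:**
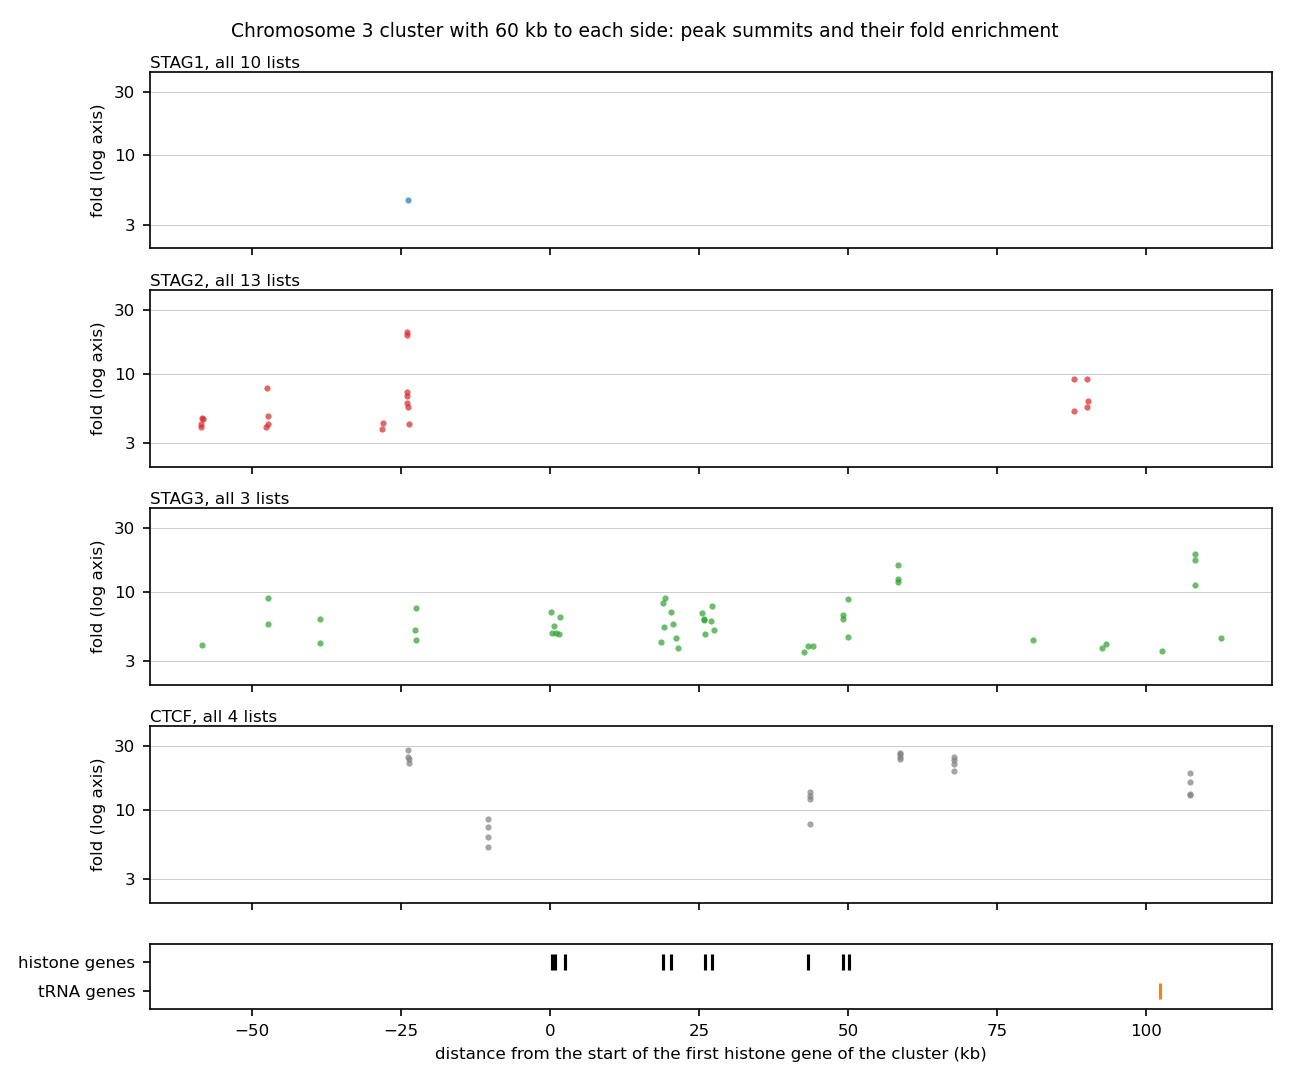
Peaks along cluster 1 and 60 kb to each side, by distance in kb from the start of its first histone gene; each point is a peak summit of 1 list, its height the authors' fold enrichment on a log axis, with 1 panel per protein and the genes along the base. Over the histone genes, STAG3 has points and CTCF has 1 site, while STAG1 and STAG2 have no point there and a few outside the 111 kb stretch.

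Around the gene starts, STAG3 and STAG2 summits were most frequent in the first 250 bp downstream. For 52 genes with a known start, a STAG3 summit lay within 500 bp of the start in 19, 48 and 51 genes. For STAG2 this held for 4 to 31 genes (median 22), for STAG1 for 0 or 1, and for CTCF for 9, 2, 1 and 6. The share of all genes was not computed for these counts, so they may not be particular to histone genes. The median distance of these STAG3 summits was 132 to 181 bp downstream of the start and that of STAG2 summits 108 to 297 bp. Since histone genes are about 500 bp long (median 475 to 529 bp per cluster), summits at these distances sit inside the transcribed gene. For the same reason the limit of 500 bp takes in about the whole gene, so the counts within it do not place summits at the start. In the first 250 bp after the start there were on average 24.3 STAG3 summits per list, 9.38 for STAG2, 1.25 for CTCF and 0.10 for STAG1. The next 250 bp downstream held 10.3 STAG3 and 5.62 STAG2 summits per list. The bin 250 to 500 bp upstream held 12 STAG3 and 5 STAG2 summits per list. Of these, 80.6% for STAG3 and 70.8% for STAG2 also lay within the first 500 bp after the start of another histone gene and were counted there too, which left 2.33 and 1.46 per list.

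**Figure D4:**
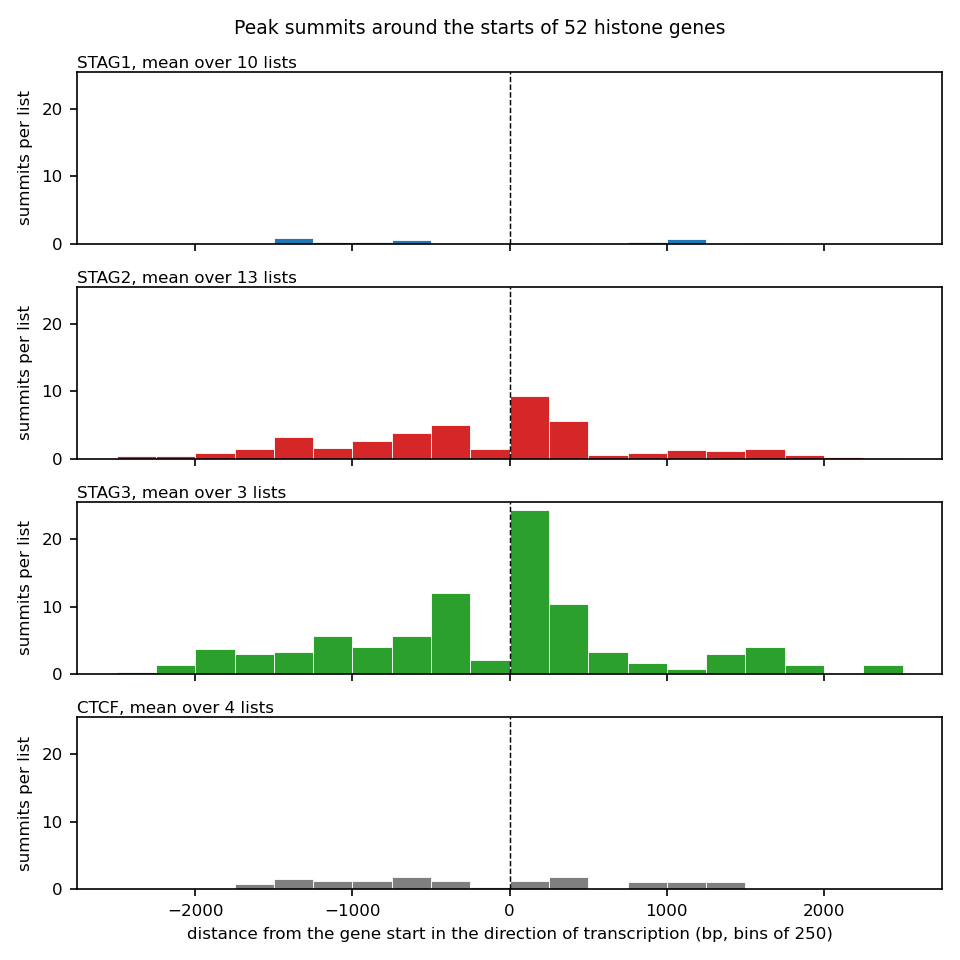
Mean number of peak summits per list in bins of 250 bp around the starts of 52 histone genes, with distance from the start in bp on the horizontal axis and 1 panel of bars per protein. The bin just downstream of the start is the highest for STAG3 (24.3) and STAG2 (9.38), and STAG1 stays near 0.

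A peak overlapping the gene itself was found in 18, 53 and 56 histone genes for STAG3, in 6 to 33 for STAG2 (median 18), in 1 or 2 for STAG1 and in 7, 3, 2 and 6 for CTCF. For these counts too, the share of all genes was not computed. The STAG1 peak in all 10 lists was at 1 CTCF site inside the long annotated H2bc6 gene (chr13:23597927-23598603), where STAG2 was in 13 of 13 lists, STAG3 in 2 of 3, and the CTCF folds were 34.1 to 35.0. So at most 1 other histone gene held a STAG1 peak in any list.

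Along the whole clusters, STAG1 peaks lay mostly at CTCF sites and STAG2 and STAG3 peaks mostly did not. Cluster 1 had 0 STAG1 and 0 STAG2 peaks in every list, 6, 9 and 13 STAG3 peaks, and 1 CTCF peak per genotype. Cluster 2 had 3 to 7 STAG1, 36 to 59 STAG2, 10, 31 and 34 STAG3 and 10 to 14 CTCF peaks. Cluster 3 had 3 to 9 STAG1, 7 to 45 STAG2, 12, 40 and 42 STAG3 and 8 to 12 CTCF peaks. There were 30 CTCF intervals in the clusters, of which 17 were found in all 4 genotypes. Of the cluster peaks in a list, 73.3% to 100% of STAG1 peaks lay at these 17 sites (median 90.5%). The share was 12.5% to 20.8% for STAG2 and 7.14% to 8.75% for STAG3, so the STAG1 range did not overlap the others. Shares at CTCF sites over the genome were not computed, so this contrast may not be particular to the clusters. The CTCF sites came from GSC of mutant genotypes alone, while most STAG1 and STAG2 lists came from other, wild-type cell types.

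STAG1 and STAG2 each had a peak at 13 of the 17 shared CTCF sites in at least 1 list, and STAG3 at 9. The 4 sites without STAG1 and STAG2 include 1 in the chromosome 3 stretch, over H4c14 (chr3:96263306-96263715, folds 7.81, 12.02, 12.7 and 13.6 in the genotype order above), and 2 in the chromosome 13 stretch. CTCF peaks at gene ends in all 4 genotypes were found at 9 histone genes (15.8%), against 31.3% of all genes. These were H4c14, H2bc13, H2ac13, H4c11, H2bc22, H2ac11, H2bc11, H3c6 and H4c3. The 13 CTCF intervals found in fewer genotypes had low folds of 3.55 to 6.94. Of these intervals, 8 overlapped a histone gene and 5 were found in Stag1Stag2dKO alone, with folds of 3.90 to 5.47. With 1 pooled list per genotype, differences between genotypes have no replicate error.

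STAG2 peaks at the tRNA genes of cluster 2 were far higher than those over histone genes. Cluster 2 holds 31 tRNA genes, and a STAG2 summit lay within 500 bp of 29 to 31 of them in every list. STAG1 did so at 1 to 3, STAG3 at 2, 5 and 8, and CTCF at 2 or 3. Across the genome the STAG2 share was 56.6% to 62.3% of 408 tRNA genes. It varied little although list length ran from 13698 to 84904 peaks. STAG1 covered 1.72% to 8.58% of them, STAG3 19.6%, 38.5% and 39.7%, and CTCF 10.3% to 11.3%.

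The authors' fold had a median of 88.5 for STAG2 peaks at tRNA genes in the clusters (3.99 to 560) and of 5.31 for STAG2 peaks over histone genes (2.81 to 169). Ranked within their own list, the histone gene peaks had a median percentile of 7.39 to 32.7 and the tRNA peaks one of 81.1 to 99.9, without overlap between the ranges. STAG3 folds, taken over its lists, showed no such contrast, with a median of 6.21 over histone genes (3.91 to 9.84) and 5.06 at tRNA genes. Within lists the order of the STAG3 ranks varied. In replicate 1 the 2 tRNA peaks of cluster 2 had a median percentile of 62.9, and its histone gene peaks 31.7. In replicates 2 and 3 the tRNA peaks there had 21.6 and 29.7, and the histone gene peaks 69.7 and 69.5. Peaks over histone genes thus ranked low in every STAG2 list.

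**Figure D5:**
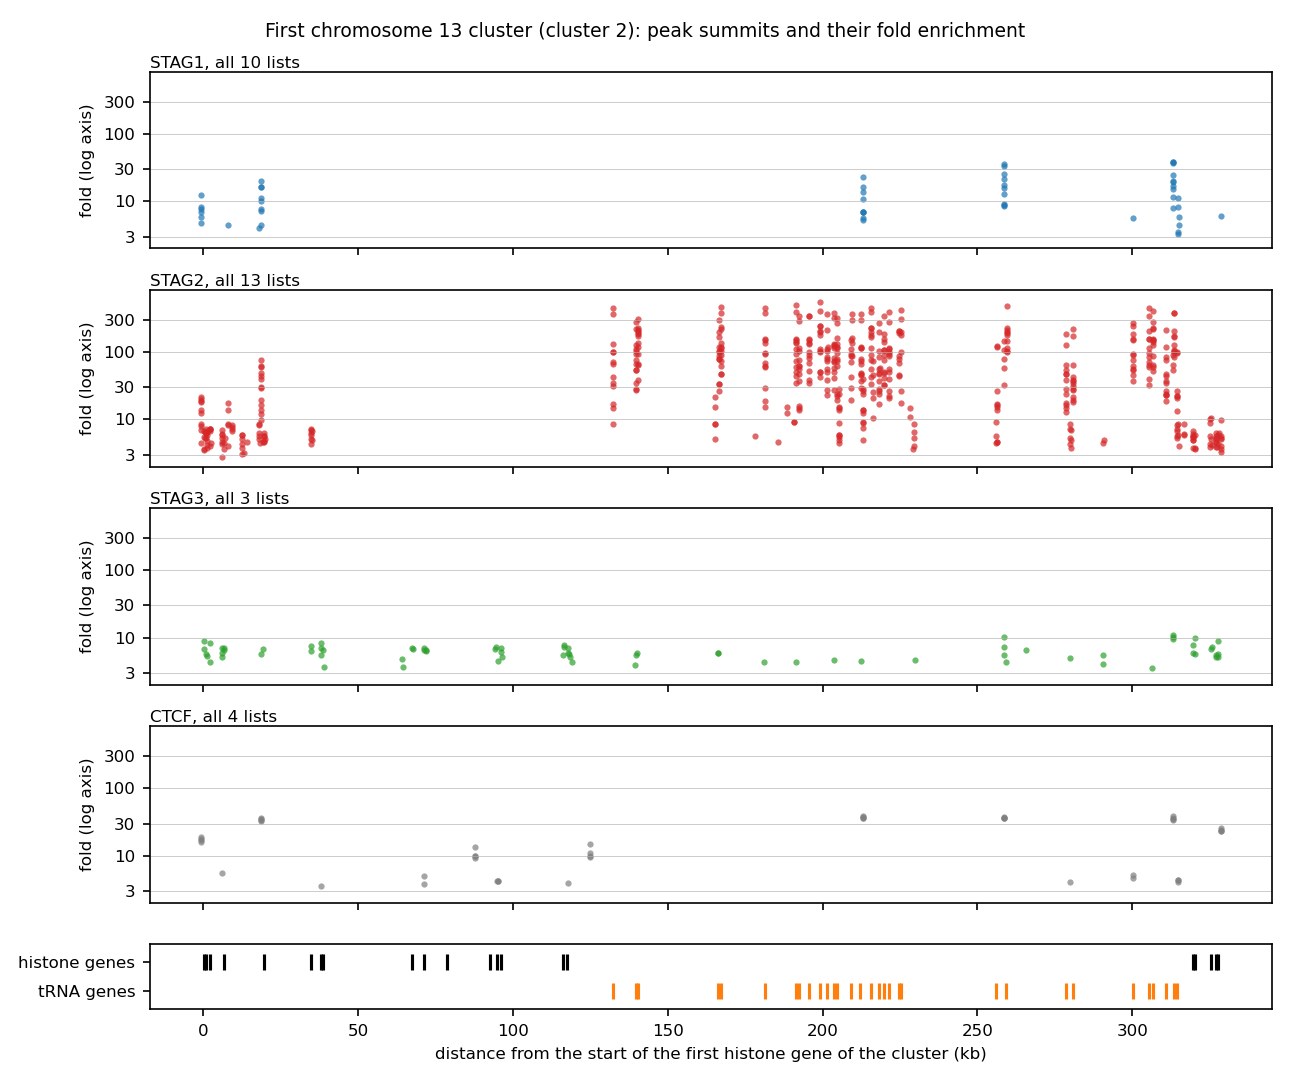
Peaks along cluster 2 with 2500 bp on each side, by distance in kb from the start of its first histone gene; each point is a peak summit of 1 list, its height the authors' fold enrichment on a log axis, with 1 panel per protein and histone and tRNA genes along the base. The highest STAG2 points, up to 560, lie at tRNA genes, STAG3 points stay low, and STAG1 points lie mostly at CTCF sites.

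Other genes of the histone pathway were read from 4 lists. Among 21 genes for histone mRNA processing and transcription, 3 were called higher for STAG2 than STAG1 (14.3%, against 15.2% of all genes) and 1 lower in GSC (4.76%, against 6.44%). They were Cstf2t, Ccne2 and E2f1, and Sympk. Slbp, the gene of the stem-loop binding protein, and Npat were not called in either test. Among 16 chaperone genes, 2 were called higher for STAG2 (12.5%), namely Asf1a and Rbbp7, and Tonsl was called lower in GSC (6.25%). In lists this small, 1 gene more or less moves a share by several percentage points, so both lists lay near the share of all genes in both tests.

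Among 11 replacement histone genes, whose symbols the rule does not take, 4 were called higher for STAG2 (36.4%), namely H3f3a, H3f3b, Macroh2a2 and H1f0. Macroh2a1 and H1f10 were called lower in GSC (18.2%). H2ax, the DNA damage histone, had STAG3 in all 3 lists, CTCF in all 4, and STAG1 or STAG2 in none of 23. Among the 6 linker histone genes of the chromosome 13 clusters, H1f1, H1f2 and H1f3 were called higher for STAG2 (50.0%) and H1f6 lower in GSC (16.7%). The adjusted p was 0.00893 for H1f1 and H1f2, 0.0333 for H1f3 and 0.0319 for H1f6 (exact permutation tests). H1f6 had the same counts of lists per protein as its neighbour H4c3, and H1f1 the same as its neighbours H4c1 and H3c1. The same peaks can serve such neighbours, so these calls are not separate from those of the histone genes. The median difference between the STAG2 and STAG1 shares was 0.30 for the mRNA list, 0.25 for chaperones, 0.40 for replacement histones and 0.533 for linker histones, beside 0.200 for all genes.

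Many of these calls rested on single lists. When each of the 23 lists was left out in turn, Asf1a, E2f1, H3f3a, H1f0, H1f1 and H1f2 passed each time. Rbbp7 was lost without ESC STAG2 replicate 2 (adjusted p = 0.0609, exact permutation test). Ccne2 was lost without any 1 of 4 lists, H3f3b of 7, Macroh2a2 of 10, H1f3 of 12 and Cstf2t of 15, with a highest adjusted p of 0.104, that of H3f3b. All 5 calls lower in GSC were lost in this way, Macroh2a1 without any 1 of 4 lists, H1f6 of 8 and Sympk, Tonsl and H1f10 of 16 each, with a highest adjusted p of 0.162.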

How the data were processed

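Peak lists of STAG1, STAG2, STAG3 and CTCF were used. RAD21, histone-mark and input libraries, and STAG libraries of mutant cells, were not analysed here. Per the submitters' processing notes, the authors used MACS2, Bowtie2 2.3.4.1, cutadapt 1.9.1 and Trim Galore 0.4.1, bedtools 2.29.2, SAMtools 1.7 and also deepTools 3.5.0, with builds GRCm38.p3 and mm10. The MACS2 version and options, the control libraries and the treatment of reads mapping to several places were not given in the sources used here. Each of the deposited lists holds for each peak a fold enrichment (a linear ratio over the local background), the −log10 p-value and the −log10 q-value (at least 2 in each list), and a score. Folds are the authors' values per peak and only describe or rank peaks within a list. STAG lists were called per library and CTCF lists on pooled replicates, per the labels. Depth is unknown, and the labels do not say that replicates were separate cultures, so a p-value here measures no more than the spread between these libraries, possibly technical.

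A peak was counted at a gene when it shared at least 1 bp with the 2500 bp around either gene end. Genes, tRNA genes and promoters came from RefSeq GRCm38.p6. STAG2 was compared with STAG1 by exact permutation within cell type, and GSC with the other cell types by exact permutation within protein, both on the difference in mean share of lists, two-sided, with Benjamini-Hochberg adjustment over 21887 genes and a threshold of 0.05. The test of STAG2 against STAG1 was run on simulated data in which lists of both proteins had similar rates of peaks. The real lists differed, with mean shares over all genes of 21.9% for STAG1 and 46.0% for STAG2. The test of GSC was not run on simulated data. Alternatives were windows of 1000 and 5000 bp, gene starts alone, −log10 q of at least 5, lists cut to equal length, an overlap of 50%, leaving out each list, and a replicate block. Leaving out peaks at tRNA genes and counting peaks over the gene body were added after seeing the data. Genes were named by rule: up to 8 with the most STAG lists, up to 8 per direction in each test, up to 8 with STAG3 and no STAG1 or STAG2 in GSC, up to 8 with CTCF in all genotypes (all 9 are named), and called genes of the pathway lists. H2bc1, H2ac1, H2bc6, Slbp, Npat and the genes with printed sequences were added for their roles. The genes and lists were chosen with earlier results of these data known. Python 3.11.15, numpy 2.4.6, pandas 2.3.3 and matplotlib 3.10.9 were used.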

Additional observations from a re-analysis of the deposited data

How the results depend on the processing

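The count of 26 histone genes higher for STAG2 than STAG1 (15.2% of all genes) was 15 with −log10 q of at least 5 (11.1%), 1 with lists of equal length (0.201%), 9 with peaks over the gene body (7.22%) and 0 with the replicate block (0%), where 27 passed an unadjusted p of 0.05. It ranged from 22 to 29 when each list was left out, and stayed at 24 to 28 under the other settings. At equal length the direction at H2ac13 and H2bc13 reversed (adjusted p = 1 each, permutation test). The 1 gene lower in GSC, H4c3, became 0 with a window of 1000 bp, with gene starts alone, with equal length, over the gene body and with the replicate block, and ranged from 0 to 1 when each list was left out. It was lost without ESC STAG1 replicate 1, either d4c7PGCLC STAG1 list, either GSC STAG1 list or any GSC STAG2 list. Over all genes the share called lower in GSC, 6.44%, was 2.88% at 1000 bp and for gene starts, 0.864% at equal length, 12.8% over the gene body and 0% with the block. The 15 genes with STAG3 and no STAG1 or STAG2 in GSC (6.26% of all genes) were 5 at equal length (4.30%) and 8 over the gene body (5.66%), and ranged from 15 to 25 without 1 list, 25 (18.1%) being without STAG3 replicate 1. At equal length, 9641 peaks each, the STAG3 lists had a median of 20 histone genes, the STAG2 lists 2 and the STAG1 lists 0. The share of all genes with a peak at this setting was not computed, so these medians may not be particular to histone genes. Lists with the same replicate number did not visibly move together. Over 10 same-number pairs the correlation of deviations ran from -0.0254 to 0.0465, none over 0.1. In ESC and EpiLC, with 2 lists per protein, both pairs give the same value by construction, so the pairs are not all separate. Whether lists were made in pairs is not known, so the block rests on a shared number alone. Apart from the values shown, the cause of these shifts was not tested.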

Other observations

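The 44 stretches with STAG3 peaks and no STAG1 or STAG2 peak in 23 lists ran from 51.7 to 2445 kb (median 108 kb) and held 274 genes, 20 of them histone genes. In 34 of them at least 3 CTCF sites were found in all 4 genotypes. The longest was chr4:145402822-147848308, with 18 genes, 45 CTCF sites of all genotypes and 21, 30 and 35 STAG3 peaks in replicates 1, 2 and 3. The next, chr14:41299047-43736288, held 35 genes, 63 CTCF sites and 2, 13 and 18 STAG3 peaks.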
